A study of Mus musculus with 24 samples.

Results

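The genes followed here belong to the major histocompatibility complex (MHC) class I presentation pathway, measured in regulatory T (Treg) cells. They were chosen by symbol, 10 of the 17464 genes listed, and cover the class I heavy chains H2-K1 and H2-D1, their light chain B2m, the peptide transporter and loading genes Tap1, Tap2 and Tapbp, the immunoproteasome subunits Psmb8, Psmb9 and Psmb10, and the transactivator Nlrc5. All 10 members were found in the table, and all 10 passed the filter on low values (at least 10 units in at least 4 libraries). Resting (rTreg, labelled CD62L+ CD44-), activated (aTreg, CD62L- CD44+) and KLRG1+ (kTreg) cells came from the spleens of wild-type C57BL/6JRccHsd mice, 4 young (2 months) and 4 old (26 months), and were separated by FACS. No mouse carried a transgene or received a treatment. Each mouse gave 1 library of each subset, so that 24 libraries formed 6 groups of 4. The labels do not give the sex of each mouse, and do not say whether CD62L or CD44 was also used to sort kTreg cells.

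Nearly all nucleated cells show peptides of their own cytosolic proteins on MHC class I. The immunoproteasome, in which Psmb8, Psmb9 and Psmb10 take the place of the catalytic subunits Psmb5, Psmb6 and Psmb7, cuts proteins into such peptides, the Tap1-Tap2 pump carries them into the endoplasmic reticulum, and tapasin, the product of Tapbp, bridges the pump to empty class I molecules. Nlrc5 acts as the master regulator of class I genes in T cells, where it is recruited to a promoter module of X and Y boxes, and interferon-γ raises most genes of the pathway.

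Values are normalized units, that is, the reads of a gene divided by 1 size factor per library. The reads on all listed genes summed to 15045747 to 29521942 in a library. Differences are given as log2 fold changes of value + 1 with their standard error (SE), from limma with all 24 libraries in 1 model and Benjamini-Hochberg adjustment over 16630 genes. A gene passed at an adjusted p below 0.05, and it was called when its fold change was also above 1.5. Shares of all genes are given for the adjusted p of limma and for groups that do not overlap. Counts of members at an unadjusted p, or with edgeR or DESeq2, have no such share beside them. Klrg1 lay between 16559 and 41561 units in kTreg libraries and at no more than 357 in the others, and Foxp3, the lineage factor of Treg cells, was above 0 in every library, with its lowest value, 5079, in the old aTreg library of mouse 2. RNA of other cells differed between libraries. The summed units of 9 B cell markers were 9143 to 19387 in the 3 libraries of young mouse 2 and 604 to 2065 in the other 21 libraries. The summed units of 8 macrophage and monocyte markers were 11109 to 27875 in old rTreg cells, 3014 to 20169 in the libraries of young mouse 2 and 164 to 3529 in the remaining libraries. Summed neutrophil, plasma cell, NK cell and erythroid markers were also highest, by their medians over a group, in old rTreg cells. The bias towards short or long transcripts also varied between libraries. Its slope, in log2 units per doubling of transcript length, ran from -0.25 in the old rTreg library of mouse 3 to 0.15 in the old kTreg library of mouse 2. Fewer cells of a type and less RNA per cell cannot be told apart in these bulk libraries.

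Of the 10 members, 7 lay on chromosome 17, in the mouse H2 complex (GRCm39, GENCODE M39). H2-K1 (ENSMUSG00000061232) spans chr17:34214987-34219321 on the minus strand and H2-D1 (ENSMUSG00000073411) chr17:35481691-35486475 on the plus strand. Psmb9, Tap1, Psmb8 and Tap2 followed each other within 34.9 kb, from chr17:34400960-34435829. The annotated genes of Psmb9 and Tap1 lie on opposite strands and overlap by 743 bases, and because the strand setting of the counting is not given in the sources used here, reads from that stretch cannot be assigned to 1 of them. Tapbp spans chr17:34134873-34148267. Psmb10 (chr8:106662362-106665077) and Nlrc5 (chr8:95160984-95253900) share chromosome 8, and B2m (chr2:121977957-121983594) lies on chromosome 2. The coding sequences of H2-K1, H2-D1 and the class Ib H2-Q and H2-T genes are alike, so that the split of reads among them is uncertain.

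The 250 bases before the start of the 3 genes that encode the class I molecule itself are shown because their letters carry a common layout. They were taken from RefSeq promoter windows (GRCm38.p6, a different build from the positions above), which held 8 of the 10 members, Tap2 and Nlrc5 being the members without an entry. Each runs 5′ to 3′ on the gene's own strand, and capitals mark the matches, on either strand, to 5 motifs. These are a palindromic NF-κB site (GGGGA and its reverse complement TCCCC, 1 base apart), the core of the interferon-stimulated response element (GAAA repeated 2 bases apart), a shorter interferon core (GAA and GAAA, 2 bases apart), TGACG (the half-site of the X2 box) and CCAAT (the Y box). No 2 matches overlapped.
H2-K1, chr17:34000348-34000597, minus strand: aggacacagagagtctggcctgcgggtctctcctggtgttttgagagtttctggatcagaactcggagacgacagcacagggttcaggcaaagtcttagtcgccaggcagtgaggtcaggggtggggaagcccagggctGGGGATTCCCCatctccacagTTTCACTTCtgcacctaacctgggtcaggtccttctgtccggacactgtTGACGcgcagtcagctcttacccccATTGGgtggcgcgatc
H2-D1, chr17:35262844-35263093, plus strand: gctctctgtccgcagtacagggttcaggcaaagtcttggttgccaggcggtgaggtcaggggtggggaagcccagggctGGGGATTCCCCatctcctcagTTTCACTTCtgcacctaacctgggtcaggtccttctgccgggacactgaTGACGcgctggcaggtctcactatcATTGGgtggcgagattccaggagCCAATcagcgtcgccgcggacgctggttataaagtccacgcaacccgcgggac
B2m, chr2:122147437-122147686, plus strand: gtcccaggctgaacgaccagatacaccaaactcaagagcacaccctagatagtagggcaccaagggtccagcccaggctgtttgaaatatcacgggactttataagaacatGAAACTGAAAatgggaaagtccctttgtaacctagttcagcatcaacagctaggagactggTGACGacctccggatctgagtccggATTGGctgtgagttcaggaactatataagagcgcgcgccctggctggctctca
In H2-K1 and H2-D1 the 4 kinds of match stood in the same order and at the same spacing. The shorter interferon core started 21 bases after the NF-κB palindrome, TGACG 49 bases after that, and ATTGG, which is CCAAT read on the other strand, a further 25 bases on. Laid over each other at the palindrome, the windows matched at 166 of 190 positions (87.4%). B2m, on another chromosome, had no NF-κB palindrome, but its TGACG was also followed by ATTGG 25 bases on, and the full interferon core started 61 bases before the TGACG. Among all 32851 windows of this length, TGACG followed by ATTGG at that distance (either strand) was found in 30, or 0.0913%, and the palindrome in 15, or 0.0457%. The single motifs were common. TGACG was in 17.8% of all windows, CCAAT in 33.8%, the shorter interferon core in 6.31% and the full core in 2.98%. The windows of Tap1 and Psmb9, genes on opposite strands, cover largely the same DNA, and the 1 TGACG and 1 CCAAT found in each are the same bases read from both strands. Tapbp held 2 CCAAT matches and no TGACG, and the windows of Psmb8 and Psmb10 held none of these letters. These matches describe the letters of the windows only, and no binding was measured.

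**Figure D1:**
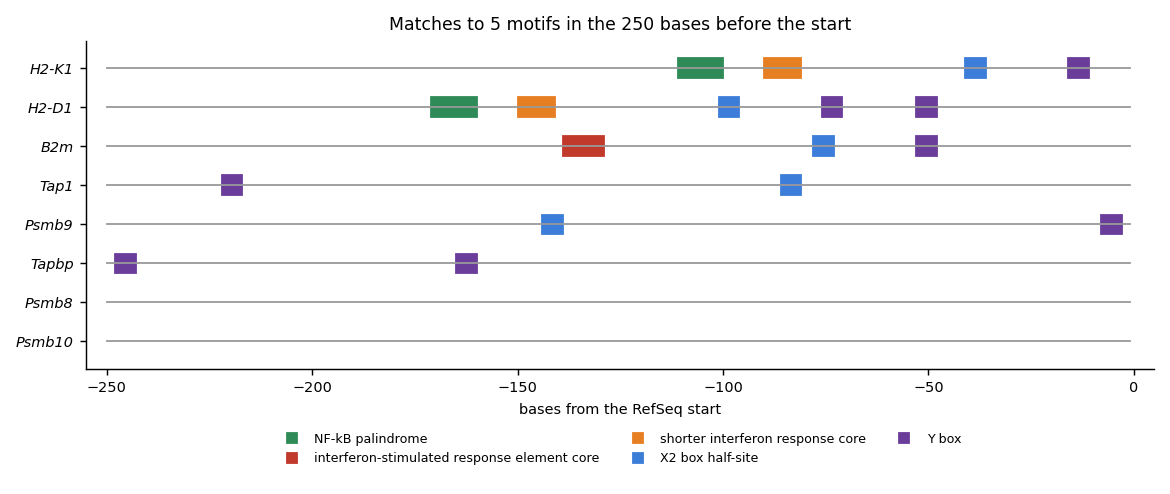
Matches to the 5 motifs in the 250 bases before the RefSeq start of the 8 members with a window, drawn by distance from the start (x axis, bases). H2-K1 and H2-D1 show the same series of 4 blocks, shifted by 60 bases, and B2m shares the spacing of the X2 and Y blocks.

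The levels of the members fell into 3 tiers. Per kilobase of canonical transcript, the mean over the 24 libraries was 92934 units for B2m, 88416 for H2-K1 and 79404 for H2-D1. The immunoproteasome and loading genes came next, at 13468 units per kilobase for Psmb8, 6231 for Psmb9, 5595 for Tapbp, 3923 for Psmb10, 3805 for Tap1 and 2964 for Tap2. Nlrc5, at 572 units per kilobase, was the lowest. Every member was detected in every library. The library with the most units of a gene held between 1.60 times (Tap2) and 2.86 times (Nlrc5) those of the library with the fewest, and the spread within groups was smallest for H2-D1 and H2-K1 (median coefficient of variation 5.80% and 6.38%) and largest for Nlrc5 (15.9%) and Psmb8 (15.9%).

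**Figure D2:**
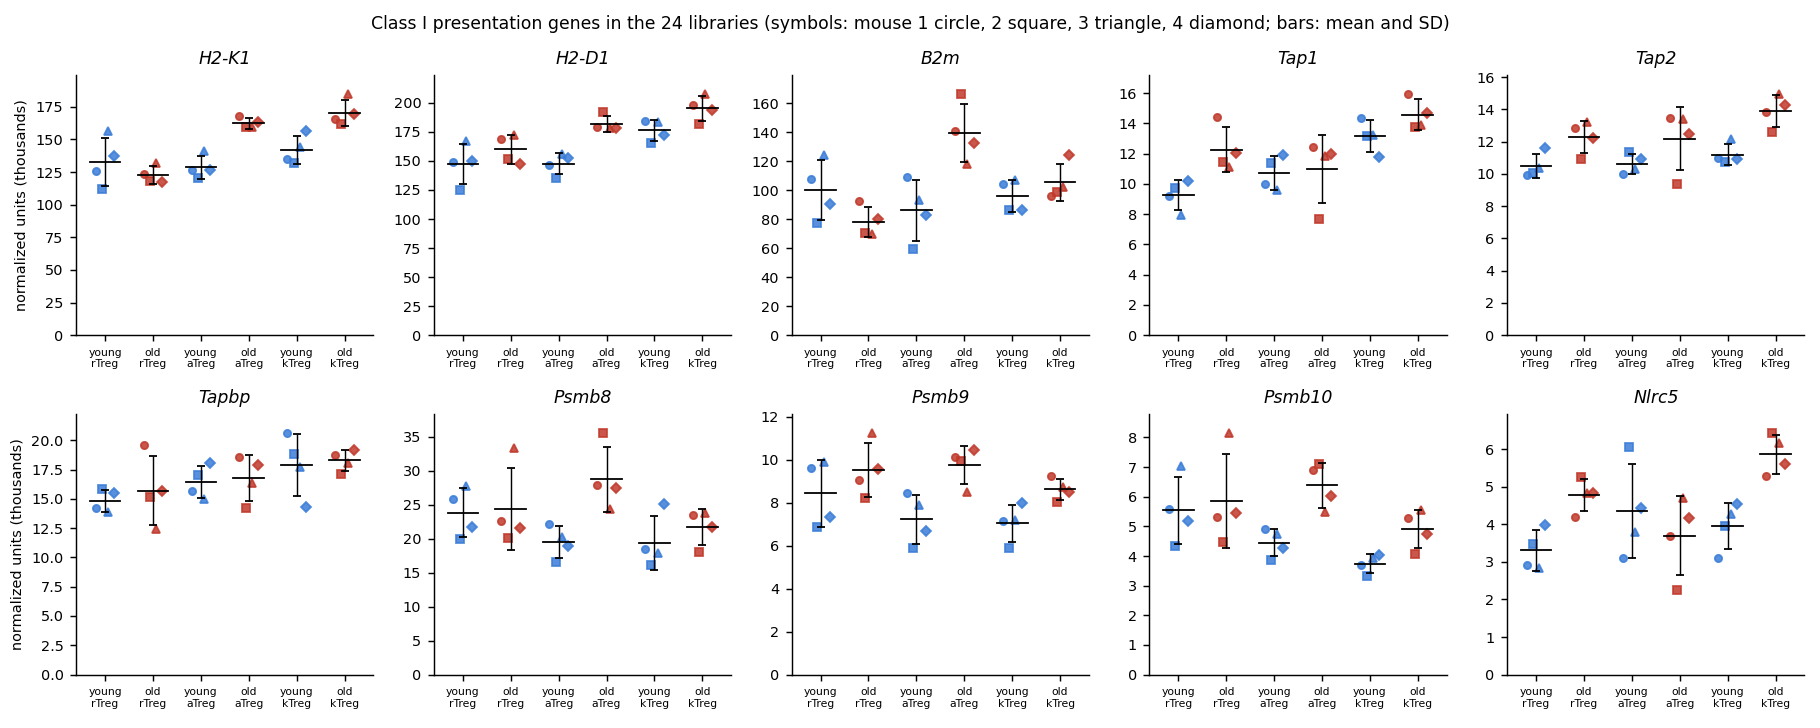
Normalized units (1 panel a gene, linear axes from 0, axis in units of 1000) of the 10 members in the 24 libraries. Points are mice (blue young, red old), and bars are the mean and SD of 4 libraries. The 8 old aTreg and old kTreg libraries lie above all others for H2-K1, 2 young kTreg libraries lie among them for H2-D1, and 3 old aTreg libraries are the highest for B2m.

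The first question of the design was how the 3 subsets differ. The heavy chains were higher in kTreg than in rTreg cells. H2-D1 had 165303, 172343, 183533 and 184180 units in young kTreg libraries and 181979, 193406, 198378 and 207707 in old ones. In rTreg libraries it had 124839, 148722, 149624 and 166808 units in the young and 146962, 151827, 168770 and 171959 in the old. H2-D1 was higher in kTreg cells in 8 of 8 mice, by a log2 fold change of 0.28 (SE 0.058, adjusted p = 0.0012), which is 1.21-fold. H2-K1 was higher by 0.29 (SE 0.061, adjusted p = 0.0015), in 7 of 8 mice. Within the ages H2-K1 differed by 0.47 in old mice (adjusted p = 0.0012), without overlap, as for 16.6% of all genes, and by 0.10 in young mice (adjusted p = 0.45). The macrophage and monocyte marker sum was 11109 to 27875 in old rTreg and 2584 to 3529 in old kTreg libraries. Its part in the differences between these groups was not tested. Over both ages 4 members passed as higher in kTreg than in rTreg cells, where 12.5% of all genes did, and 1 as lower, where 10.3% did. None of the 10 was called, against 15.5% of all genes. In young mice alone 3 members passed, where 18.8% of all genes did, and in old mice 2, where 10.2% did. The median over the 10 members was 0.22, beside -0.01 over all genes tested.

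Of the transporter and loading genes, Tap1 showed the clearest order. Its 4 young kTreg libraries held 11785 to 14361 units and its 4 young rTreg libraries 7927 to 10199, with no overlap, as for 21.9% of all genes. Tap1 rose by 0.38 over both ages (SE 0.092, adjusted p = 0.0039), in 8 of 8 mice, and by 0.51 in young mice alone (adjusted p = 0.0079). In old mice the difference was 0.26 (adjusted p = 0.23), higher in 4 of 4 mice. Tapbp was higher by 0.25 (SE 0.086, adjusted p = 0.041), in 6 of 8 mice, and passed under 22 of 44 alternatives, edgeR not among them (adjusted p = 0.063). Its pass ended without the young rTreg library of mouse 1 or 3, the old rTreg library of mouse 2, 3 or 4, the young kTreg library of mouse 1, 2 or 3, the old kTreg library of mouse 1, 3 or 4, or all libraries of young mouse 1, 2 or 3 or of old mouse 2, 3 or 4 (0.19 to 0.26, adjusted p = 0.054 to 0.16). Tap2, the partner of Tap1 in the pump, differed by 0.14 (95% interval -0.01 to 0.29, adjusted p = 0.18). Whether Tap1 and Tap2 differed from each other was not tested.

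The immunoproteasome subunits lay on the other side of 0. Psmb10, the trypsin-like subunit, had 3335 to 4027 units in young kTreg libraries against 4346 to 7024 in young rTreg libraries, which did not overlap. It fell by 0.39 over both ages (SE 0.11, adjusted p = 0.015), lower in kTreg cells in 8 of 8 mice. Psmb8 and Psmb9 had log2 fold changes of -0.22 (adjusted p = 0.17) and -0.19 (adjusted p = 0.15). Nlrc5 was 0.28 higher in kTreg than in rTreg cells (95% interval -0.01 to 0.57, adjusted p = 0.16), in 8 of 8 mice. With the length slope of each library in the model, an alternative chosen after seeing the data, Psmb10 was at -0.22 (adjusted p = 0.057) and Tapbp at 0.14 (adjusted p = 0.16). That model put Psmb8 at -0.009 (adjusted p = 0.91), Psmb9 at -0.05 (adjusted p = 0.61) and Nlrc5 at 0.15 (adjusted p = 0.47). Psmb10 passed under 41 of 44 alternatives and also fell short without young mouse 1 (-0.38, adjusted p = 0.0503) or young mouse 3 (-0.34, adjusted p = 0.060), while H2-K1, H2-D1 and Tap1 passed under each of the 44 alternatives.

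Against aTreg cells, the other antigen-experienced subset, kTreg cells differed less. Tap1 rose by 0.36 (SE 0.092, adjusted p = 0.010) and H2-D1 by 0.18 (SE 0.058, adjusted p = 0.046), each in 7 of 8 mice, so that 2 members passed as higher, where 6.06% of all genes did, and none as lower, where 6% did. None was called, against 7.39% of all genes. H2-D1 passed under 18 of 44 alternatives and Tap1 under 43, the exception being without young mouse 1 (0.33, adjusted p = 0.061). Psmb10 was again below 0 (-0.31, adjusted p = 0.074), and Nlrc5 above it (0.30, adjusted p = 0.18), both short of the threshold. Psmb10 passed as lower under 5 of 44 alternatives, one of them the length slope in the model (-0.23, adjusted p = 0.043). B2m differed by -0.11 (95% interval -0.35 to 0.13). In old mice alone the 4 kTreg libraries held 5284, 5617, 6161 and 6431 units of Nlrc5 and the 4 aTreg libraries 2252, 3688, 4164 and 4712, which did not overlap. In old mice 21.2% of all genes stood apart in this way. The difference in Nlrc5 was 0.71 (SE 0.20, adjusted p = 0.059, and 0.043 with the mouse as a replicate block), while in young mice it was -0.11 (adjusted p = 0.79). No member passed between these subsets within the young, where 8.38% of all genes did, or within the old, where 2.45% did. At an unadjusted p below 0.05 there were 2 members in the young and 5 in the old, and with DESeq2 on recovered reads 1 and 2 passed. The shares of all genes for these counts are not at hand. H2-D1 was 0.26 higher in young kTreg than in young aTreg cells (adjusted p = 0.055, and 0.038 with the block).

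Between aTreg and rTreg cells none of the 10 members passed over both ages with limma or edgeR, where 10.5% of all genes did with limma. DESeq2 passed 1, H2-K1, and 2 members had an unadjusted p below 0.05. H2-K1 came nearest (0.18, SE 0.061, adjusted p = 0.062, 0.044 with the block and 0.0098 with the length slope in the model), and B2m was at 0.30 (adjusted p = 0.11). In old mice, however, 2 members passed as higher, where 5.73% of all genes did. B2m, which every class I molecule needs to fold, had 118382, 132325, 140673 and 166566 units in old aTreg libraries and 69798, 70473, 80053 and 92511 in old rTreg libraries, without overlap, as for 15.4% of all genes. It rose by 0.83 (SE 0.17, adjusted p = 0.0024), 1.78-fold, in 4 of 4 mice, and was called, as 4.82% of all genes were in that direction. H2-K1 rose by 0.40 (adjusted p = 0.0045), also in 4 of 4 mice. B2m passed under each of the 44 alternatives and H2-K1 under 42, falling short with only the groups compared in the model (0.40, adjusted p = 0.076) and without old mouse 4 (0.38, adjusted p = 0.054). With the length slope in the model Psmb8 passed as well (0.24, adjusted p = 0.0096). The macrophage and monocyte marker sum, 11109 to 27875 in the old rTreg libraries, was 716 to 1436 in the old aTreg libraries, and its part in this difference was not tested. In young mice no member passed with limma, edgeR or DESeq2, none had an unadjusted p below 0.05, and 3.84% of all genes passed with limma, while B2m stood at -0.23 (95% interval -0.57 to 0.11).

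**Figure D3:**
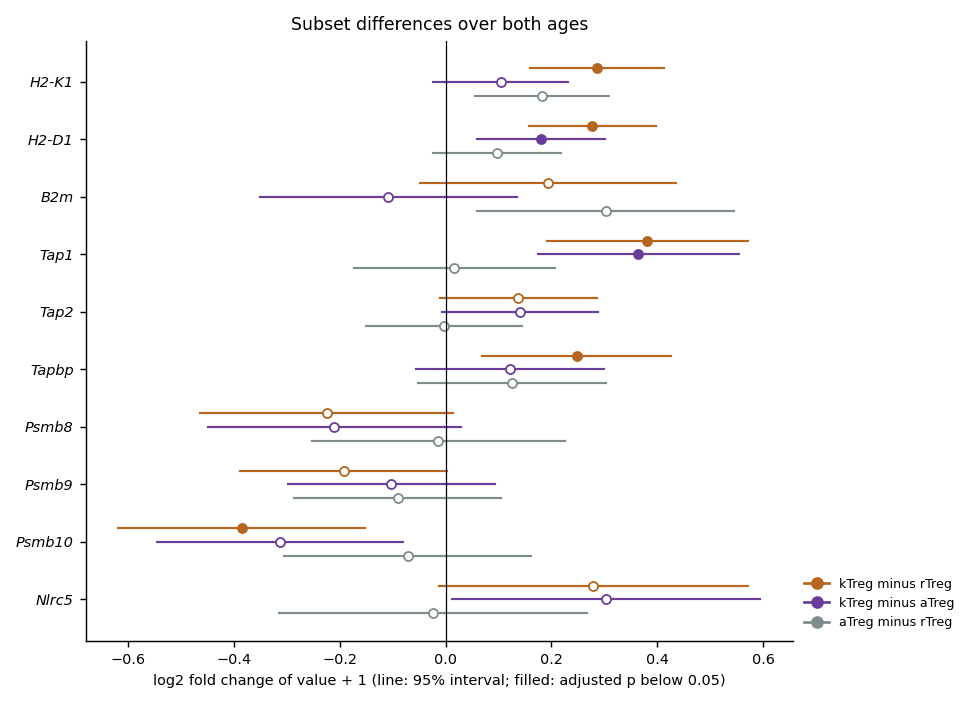
Log2 fold changes of the 10 members between subsets over both ages (x axis, value + 1; points with 95% intervals, filled where the adjusted p was below 0.05). H2-K1, H2-D1, Tap1 and Tapbp lie above 0 and Psmb10 below 0 for kTreg minus rTreg.

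The second question was how age changes each subset. In aTreg cells the transcripts of the class I molecule itself were higher in old mice. B2m had 59314.5, 82826, 93282 and 109471 units in young aTreg libraries and 118382 to 166566 in old ones, which did not overlap. It rose by 0.72 (SE 0.17, adjusted p = 0.016), 1.64-fold. H2-K1 had 120555, 126496, 126548 and 141165 units in the young and 159104, 159223, 162966 and 167820 in the old, again apart, and rose by 0.34 (SE 0.086, adjusted p = 0.032). H2-D1 went from 135422 to 155912 units in the young to 178306 to 192231 in the old and rose by 0.30 (SE 0.082, adjusted p = 0.044). In all, 3 members passed as higher, where 2.1% of all genes did, and B2m was called, where 1.85% were.

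The immunoproteasome genes of old aTreg cells lay above those of young ones without overlap, but did not pass with limma. Psmb8 had 16568 to 22228 units in the young and 24305 to 35530 in the old (0.56, SE 0.16, adjusted p = 0.070). Psmb9 differed by 0.44 (adjusted p = 0.079) and Psmb10 by 0.52 (adjusted p = 0.089). With DESeq2 on recovered reads all 3 passed (adjusted p = 0.028, 0.039 and 0.040). Tap1, Tap2 and Tapbp differed by 0.02, 0.18 and 0.02, with adjusted p of 0.99, 0.50 and 0.99, and Nlrc5 was the only member below 0 (-0.24, 95% interval -0.66 to 0.17). In all, 6 of the 10 members did not overlap between the ages in aTreg cells, where 13.4% of all genes did not, and 9 of 10 were above 0, with a median of 0.32 beside 0.01 over all genes. With libraries scaled to equal totals 7 of 10 were above 0, Tap1 and Tapbp being the members that changed side.

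The cells sorted as aTreg also differed in Cd44, a marker of the sort, which had 2932 to 4356 units in young and 4896 to 6441 in old aTreg libraries and rose by 0.67 (adjusted p = 0.044). Among 7 Treg markers, Foxp3 had 20351 to 25465 units in young and 5079 to 19813 in old aTreg libraries. Il2ra had 7549 to 9925 in the young and 2901 to 4558 in the old, and Ctla4 10431 to 13058 and 3128 to 8745. Cd3e was higher in the old, at 20050 to 22641 against 17949 to 19348, while Cd3g, Cd4 and Ikzf2 overlapped. The part of the gate, and of these differences in Treg markers, in the age differences of the members was not tested.

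In aTreg cells the age difference of B2m leaned on the mice numbered 2. The old aTreg library of mouse 2 held the most B2m (166566) and Psmb8 (35530) of its group and the least Tap1 (7675), Tap2 (9356), Tapbp (14198) and Nlrc5 (2252), and its length slope was -0.17, beside -0.04 to 0.06 in the other 3. The young aTreg library of mouse 2, with the B cell markers noted above, held the least B2m (59314.5) and the most Nlrc5 (6069). Without the 6 libraries of both mice, an alternative chosen after seeing the data, B2m was at 0.46 (adjusted p = 0.23), H2-K1 at 0.32 (adjusted p = 0.14) and H2-D1 at 0.24 (adjusted p = 0.23). Without the old aTreg library of mouse 2 alone, B2m was at 0.63 (adjusted p = 0.081), and without the young one at 0.55 (adjusted p = 0.078). B2m also fell short without old mouse 1 (0.71, adjusted p = 0.059) and with only the groups compared in the model (0.72, adjusted p = 0.051). The heavy chains fell short without other mice as well. Without old mouse 1, H2-K1 was at 0.32 (adjusted p = 0.15) and H2-D1 at 0.31 (adjusted p = 0.13). Without young mouse 4 they were at 0.33 (adjusted p = 0.12) and 0.32 (adjusted p = 0.14). H2-D1 passed under 11 of 44 alternatives, H2-K1 under 26 and B2m under 37.

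In kTreg cells no member passed between the ages with limma, edgeR or DESeq2, where 1.32% of all genes did with limma, although 5 had an unadjusted p below 0.05. All 10 were above 0 under each scaling of the libraries, with a median of 0.22 beside 0.12 over all genes. H2-K1 had 131764 to 156137 units in young and 161986 to 184859 in old kTreg libraries, which did not overlap (0.27, SE 0.086, adjusted p = 0.14). Nlrc5 had 3116, 3945, 4269 and 4536 units in the young and 5284, 5617, 6161 and 6431 in the old (0.58, SE 0.20, adjusted p = 0.17). Tap2, Psmb9 and Psmb10 did not overlap either, with log2 fold changes of 0.31, 0.30 and 0.38, so that 5 of 10 members stood apart, where 10.5% of all genes did. The young kTreg library of mouse 4, with 4913 genes at 0 beside 419 to 2756 in the other libraries, had a length slope of -0.20 against 0.06 to 0.11 in the other young kTreg libraries. With the length slope in the model, H2-K1 (0.30, adjusted p = 0.037), Psmb8 (0.31, adjusted p = 0.013), Psmb9 (0.38, adjusted p = 0.029) and Psmb10 (0.49, adjusted p = 0.023) passed as higher in old kTreg cells, and in aTreg cells Psmb8 (0.37, adjusted p = 0.0012) and Psmb9 (0.32, adjusted p = 0.048) did. Tapbp moved to the other side of 0 in kTreg cells in that model (-0.02, adjusted p = 0.92).

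Resting cells showed another order. No member passed between old and young rTreg cells with limma or edgeR, where 6.7% of all genes did with limma. DESeq2 passed 1, Tap1, and 4 had an unadjusted p below 0.05. Tap1 had 7927 to 10199 units in young and 11107 to 14410 in old rTreg libraries, without overlap (0.40, SE 0.13, adjusted p = 0.063). It passed under 7 of 44 alternatives, among them the length slope in the model (0.37, adjusted p = 0.026) and the fit without both mice numbered 2 (0.46, adjusted p = 0.032). Nlrc5 had 2830 to 3989 units in the young and 4205 to 5256 in the old, also without overlap (0.54, SE 0.20, adjusted p = 0.10). These were the only 2 members that stood apart, where 11.7% of all genes did. H2-K1 was at -0.10 (95% interval -0.28 to 0.08) and B2m at -0.34 (95% interval -0.69 to -0.00058, adjusted p = 0.23), so that B2m was lower in old than in young rTreg cells by its mean, 78209 against 100191 units, and higher in old aTreg cells. The marker sum of macrophages and monocytes, 824 to 8978 in the young and 11109 to 27875 in the old rTreg libraries, moved with age in this subset, and its part in these values was not tested.

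**Figure D4:**
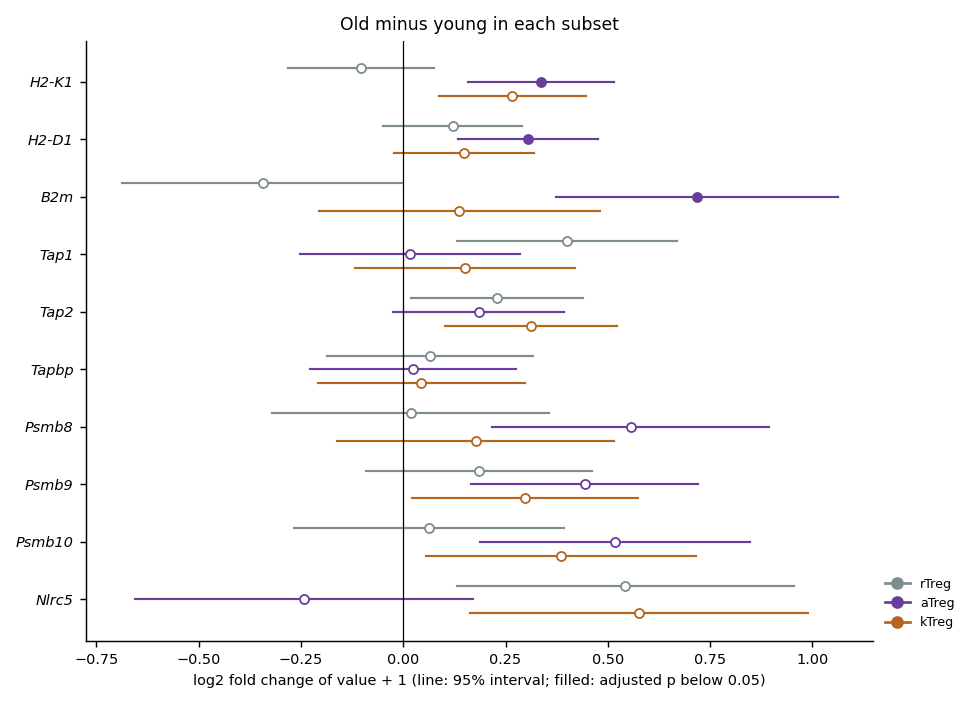
Old minus young log2 fold changes of the 10 members in rTreg, aTreg and kTreg cells (x axis, value + 1; points with 95% intervals, filled where the adjusted p was below 0.05). B2m, H2-K1 and H2-D1 are filled in aTreg cells, and B2m has estimates on both sides of 0.

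Whether age acted differently between subsets was tested directly. The age difference of B2m was 1.06 larger in aTreg than in rTreg cells (SE 0.23, adjusted p = 0.025), the only member that passed, where 0.523% of all genes did in that direction and 1.05% in the other. Without both mice numbered 2 it was 0.87 (adjusted p = 0.072), and it passed under 31 of 44 alternatives. For H2-K1 the same difference was 0.44 (SE 0.12, adjusted p = 0.073, and 0.049 with the block). No member passed for age by kTreg against rTreg, where 3.05% of all genes did, nor for age by kTreg against aTreg, where 0.156% did, with limma, edgeR or DESeq2, and 1 and 2 members had an unadjusted p below 0.05. Nlrc5 had the widest estimates here, 0.82 for kTreg against aTreg (95% interval 0.24 to 1.40, adjusted p = 0.35) and -0.79 for aTreg against rTreg (95% interval -1.37 to -0.20, adjusted p = 0.17).

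The make-up of the proteasome was compared within each library, where a ratio of 2 subunits does not depend on the size factor. The ratio of Psmb8 to Psmb5, the chymotrypsin-like subunits, was 4.73 in young rTreg, 4.77 in young aTreg and 4.77 in young kTreg cells (geometric means of 4 libraries). In old mice it was 5.08 in rTreg, 6.24 in aTreg and 6.24 in kTreg cells. Old aTreg libraries held 5.90 to 6.58 and young ones 4.16 to 5.14, and old kTreg libraries 6.06 to 6.45 against 4.14 to 5.06, so that neither pair overlapped. The log2 ratio was 0.39 higher in old than in young cells of both subsets (two-sided exact permutation p = 0.029, the smallest that 4 against 4 allows, adjusted p = 0.080 over 18 tests). Psmb10 to Psmb7, the trypsin-like pair, was higher by 0.38 in old aTreg and by 0.42 in old kTreg cells, with the same exact p-values and no overlap. In rTreg cells the old libraries held 3.81 to 6.61 for Psmb8 to Psmb5 and lay on both sides of the young ones (difference 0.10, exact p = 0.60).

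By its means, the third pair was higher in kTreg cells than in the other subsets, and in old than in young cells of each subset. Psmb9 to Psmb6, the pair at the site that is caspase-like in the constitutive proteasome, was 0.31 higher in kTreg than in aTreg cells, in 8 of 8 mice (exact sign-flip permutation p = 0.0078, the smallest that 8 mice allow, adjusted p = 0.080). Against rTreg cells it was 0.24 higher in kTreg cells, in 6 of 8 mice (exact sign-flip permutation p = 0.031, adjusted p = 0.080). It was 0.43 higher in old than in young rTreg cells (exact p = 0.029, adjusted p = 0.080), with 1.49 to 2.13 in the old and 1.31 to 1.43 in the young. The old libraries overlapped the young ones in aTreg cells (0.29 higher, exact p = 0.14, adjusted p = 0.23) and kTreg cells (0.18 higher, exact p = 0.086, adjusted p = 0.19). None of the 18 tests passed after adjustment. Psmb6 fell in kTreg cells against both aTreg (-0.41, adjusted p = 0.041) and rTreg cells (-0.43, adjusted p = 0.018), and Psmb7 against rTreg cells (-0.41, adjusted p = 0.015), none of them called, which lowers the denominator of these ratios. Of 11 other subunits of the 20S core, 3 passed as lower in kTreg than in rTreg cells, Psma4, Psma1 and Psma6, where 10.3% of all genes did. All 11 were below 0, with a median of -0.31 beside -0.01 over all genes. The median length slope was 0.08 in young and 0.06 in old kTreg libraries, and -0.08 and 0.02 in rTreg libraries. Its part in the lower values of these subunits was not tested.

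**Figure D5:**
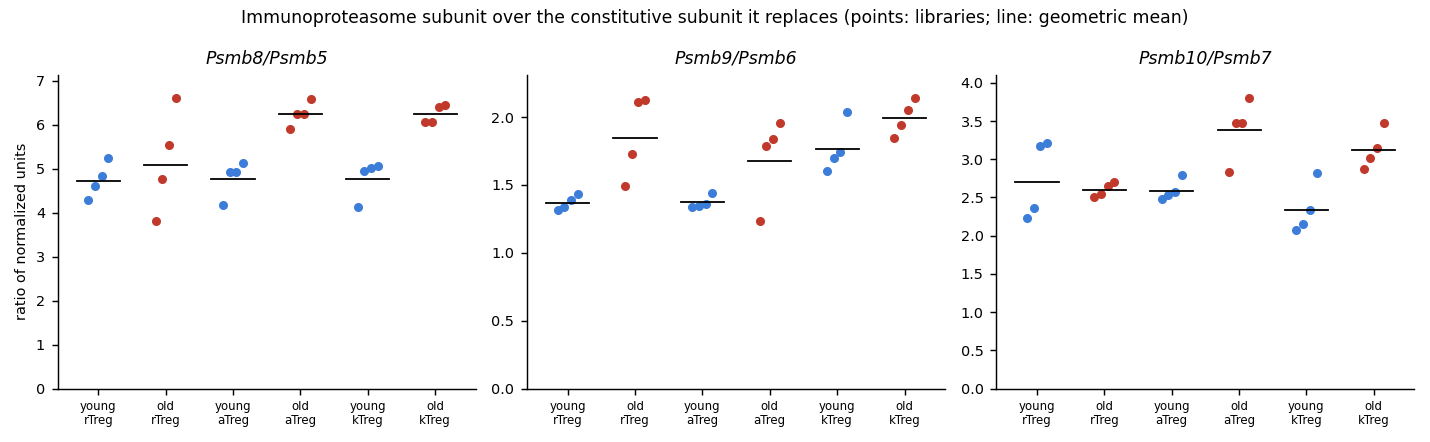
Ratio of normalized units of each immunoproteasome subunit to the constitutive subunit it replaces, by group (linear axes from 0; points are libraries, lines are geometric means). For Psmb8/Psmb5 and Psmb10/Psmb7 the old aTreg and old kTreg libraries lie above all young libraries of the same subset.

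Across the 24 libraries Psmb8, Psmb9 and Psmb10 were correlated with each other (Pearson r of 0.87 to 0.91), as were Tap1 with Tapbp (0.77) and Tap2 (0.74), and Nlrc5 with Tap2 (0.71) and Tap1 (0.68). H2-K1 and H2-D1 had an r of 0.85. The 3 immunoproteasome genes had a negative r with Tap1, Tapbp and Nlrc5 (-0.52 to -0.18) and a positive one with Tap2 (0.06 to 0.27). H2-K1 and H2-D1 had an r of 0.15 to 0.58 with the Tap, Psmb and Nlrc5 genes alike, and B2m had 0.42 to 0.51 with the Psmb genes and -0.51 with Nlrc5. These 24 points share 8 mice, 6 groups and the length bias of their libraries. The length slope had an r of -0.83 with Psmb8, -0.66 with Psmb10 and -0.63 with Psmb9, whose transcripts are 1312 to 1702 bases long, and of 0.71 with Tapbp, 0.58 with Tap1 and 0.55 with Nlrc5, whose transcripts have 2978, 3105 and 7578 bases. The order did not follow length throughout, as the slope had an r of only 0.30 with Tap2 (3976 bases) and -0.24 with B2m (1086 bases). With H2-K1 and H2-D1 it had an r of -0.05 and -0.004.

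The genes most like the members were sought among all genes tested, by Pearson r over the 24 libraries. Closest to the mean of the members was H2-T23 (0.89), which encodes the class Ib chain Qa-1, followed by Ifngr1 (0.85), the ligand-binding chain of the interferon-γ receptor, 1700054O05Rik (0.82), Adra2c (0.82) and Rbfox2 (0.81). Closest to Nlrc5 were Cbx7 (0.88), Nrp1 (0.87), Znfx1 (0.87), Mast3 (0.86) and Krba1 (0.85), which had transcripts of 3533 to 7254 bases.

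Of the upstream pathway, the chains of the interferon-γ receptor moved in opposite directions with age in aTreg cells. Ifngr1 had a mean of 12496 units in young and 23071 in old aTreg cells and rose by 0.88 (SE 0.15, adjusted p = 0.0012). In kTreg cells it went from 12938 to 22119 units and rose by 0.79 (adjusted p = 0.0075). Ifngr2, the signalling chain, fell by 0.81 in aTreg cells (adjusted p = 0.028) and by 0.84 in rTreg cells (adjusted p = 0.014), from 1885 to 1091 units. Between subsets Ifngr2 was lower in kTreg (-0.81) and aTreg (-0.75) than in rTreg cells. Tyk2, a kinase of the type I interferon receptor, was higher in kTreg than in rTreg (1.00) and aTreg cells (0.71), and Jak2, a kinase of the interferon-γ receptor, was 0.72 higher in kTreg than in rTreg cells. Socs3, a feedback inhibitor of cytokine receptors, was lower in kTreg than in rTreg (-1.20) and aTreg cells (-0.59) and lower in aTreg than in rTreg cells (-0.61), and in rTreg cells it rose with age by 0.96 while Socs1, the feedback inhibitor of interferon signals, fell by 0.59. All of these were called. In all, 4 of 11 interferon receptor and kinase genes were called in kTreg against rTreg cells (2 higher, 2 lower), 2 in kTreg against aTreg, 2 in aTreg against rTreg, and 3, 2 and 1 between the ages of rTreg, aTreg and kTreg cells. Over all genes these shares were 15.5%, 7.39%, 8.01%, 5.83%, 2.71% and 1.26%.

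The interferon-stimulated genes did not follow 1 direction. Of 34, 6 were called in kTreg against rTreg cells (5 higher, 1 lower), where 15.5% of all genes were. Against aTreg cells 3 were called (2 higher, 1 lower), where 7.39% of all genes were, and in aTreg against rTreg cells 3 (1 higher, 2 lower), where 8.01% were. The median of the list was -0.13, -0.09 and -0.01 in these comparisons, beside -0.01, -0.08 and 0.06 over all genes. Oas1a, a sensor of double-stranded RNA, was higher in kTreg than in rTreg (0.84) and aTreg cells (0.75) and Gbp7, a guanylate-binding protein, by 0.89 and 0.78. Cxcl10, a chemokine induced by interferon-γ, was 2.45 higher in kTreg and 2.34 higher in aTreg than in rTreg cells. Usp18, a negative regulator of type I interferon signals, was lower in kTreg than in rTreg (-1.45) and aTreg cells (-0.65) and lower in aTreg than in rTreg cells (-0.80), and Oas2 was 1.64 lower in aTreg than in rTreg cells. With age Oas1a was the 1 gene of the list called in rTreg cells, from 824 to 1745 units (1.10), where 5.83% of all genes were called. The median of the list between the ages was -0.05 in rTreg, 0.12 in aTreg and 0.12 in kTreg cells, beside -0.08, 0.01 and 0.12 over all genes.

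Among class Ib chains, which have the class I fold but few alleles, 15 of 21 listed names could be tested. H2-Q10 rose with age in aTreg (1.77, adjusted p = 0.018) and kTreg cells (1.79, adjusted p = 0.030), from 135 to 444 and from 188 to 550 units, and H2-Q7 rose by 0.73 in kTreg cells (adjusted p = 0.037). H2-T24 was 0.74 lower in aTreg than in rTreg cells (adjusted p = 0.0063). In old rTreg cells H2-Q10 had 235 to 625 units, against 126 to 213 in the young, and was not called. In kTreg against rTreg cells 4 of 15 passed as higher (H2-M3, Mr1, H2-Q7 and H2-T23), where 12.5% of all genes did, and none as lower, where 10.3% did. Of the regulators of class I transcription, none of 21 was called in kTreg against rTreg or aTreg cells, and only Ezh2, the methyltransferase of polycomb repressive complex 2, was called in aTreg against rTreg cells (-0.59, adjusted p = 0.0011). The other peptide loading and trimming genes had no call in the 3 subset comparisons over both ages or the 3 age comparisons, but the aminopeptidase Erap1 passed as higher in kTreg than in rTreg cells (0.37, adjusted p = 0.0099) and Lap3 as lower (-0.48, adjusted p = 0.015), and Calr passed as higher in both kTreg (0.22) and aTreg (0.36) than in rTreg cells. The 5 proteasome activator genes had no call there, and neither did the 4 tested genes for surface class I turnover. MHC class II genes, which the B cells and myeloid cells of the spleen transcribe at high levels, were followed as a contrast. H2-Ob, an inhibitor of class II peptide exchange, was lower in kTreg (-1.50) and aTreg (-1.37) than in rTreg cells and fell with age in aTreg cells by 1.54, and H2-DMa, a subunit of the class II peptide exchange factor, was 0.62 lower in kTreg than in aTreg cells and rose with age in kTreg cells by 0.99. The list as a whole lay otherwise in kTreg against aTreg cells. Of its 9 genes 6 were above 0, with a median of 0.46 beside -0.08 over all genes, and 1 was called, where 7.39% of all genes were. In old mice 8 of 9 were above 0 (median 1.06 beside 0.01). The macrophage and monocyte marker sum was 2584 to 3529 in old kTreg and 716 to 1436 in old aTreg libraries, and its part in this difference was not tested. Against rTreg cells the median was -0.12 in kTreg and -0.80 in aTreg cells, beside -0.01 and 0.06 over all genes.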

How the data were processed

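RNA was measured by sequencing of 24 libraries (SMART-Seq v4, polyA, paired 150-base reads without molecular identifiers). By the submitters' processing notes, the authors used HISAT2 2.2.1, SAMtools 1.13, HTSeq 1.99.2 and DESeq2 1.44.0 with GRCm39. The annotation release, the strand setting and the treatment of reads with several alignments are not given in the sources used here. The deposited table holds a signal per gene and library, the reads divided by 1 size factor per library, for 17464 genes with 100 or more reads in sum. Multiplying back gave whole reads for 100% of values within 0.001 reads, between 15045747 and 29521942 per library.

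Values were compared as log2(value + 1), a scale that understates changes of low genes, by limma 3.58.1 (R 4.3.3, trended prior variance) over 16630 genes with at least 10 units in at least 4 libraries, with 1 mean for each of the 6 groups, and it was tested on simulated data. Adjusted p-values are Benjamini-Hochberg values over all genes tested. Ratios were compared by exact two-sided permutation tests. The 3 subsets of a mouse come from the same animal per the series' design text, so that replicate numbers pair them. The median correlation of deviations was 0.15, 0.091 and 0.12 between libraries of 1 mouse and -0.033 to -0.051 between mice, and the consensus correlation of a mouse was 0.062. A fit with that block, edgeR 4.0.16 and DESeq2 1.42.0 on the recovered reads, other pseudocounts, filters and scalings, and fits without each library or mouse were alternatives. Positions come from GENCODE M39, which held 17353 of the 17464 identifiers, and sequences from RefSeq. The members, the gene lists and the rule for naming genes (members always, up to 4 called genes per list and comparison by p, the 5 genes most like Nlrc5 and the mean of the members) were chosen with earlier results of these data known. Genes that passed without being called were named after their values were seen, from counts of 5 or fewer, and so were 2 motif searches, the shorter interferon core and the spacing of the X2 and Y matches. The authors' own comparisons were not used. The values of 1 gene are not reported here.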

Additional observations from a re-analysis of the deposited data

Results flagged for a closer look

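Each of the 10 members was examined in each of the 6 groups of 4 libraries for a library far from the other 3, a test by which chance marks about 1 group in 20. 3 such values were found, about as many as chance alone would mark. In old aTreg cells the library of mouse 2 held 192231 units of H2-D1, where the others held 178306 to 178827, and 7675.49 units of Tap1, where the others held 11863 to 12416. In young kTreg cells the library of mouse 3 held 12192.2 units of Tap2, where the others held 10739 to 10963. Both marks in old aTreg cells fell on the library whose Foxp3 value was the lowest of all, and a link between them was not tested.

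The age difference of B2m differed between aTreg and rTreg cells by 1.06 on the log2 scale in the test of the difference itself (limma, SE 0.23, adjusted p = 0.025). B2m was higher in old than in young aTreg libraries in every pairing of the 4 old with the 4 young values, and its mean was lower in old than in young rTreg libraries, with overlap.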

How the results depend on the processing

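Every member that passed kept its direction under all alternatives. Of the values of passed members, 637 stayed past the threshold and 155 fell short, and of the counts of called members 647 stayed within 1.5 times and 43 moved. With no fold threshold the counts were 2 for kTreg against aTreg and 5 for kTreg against rTreg over both ages, 3 for old against young aTreg, 3 and 2 for kTreg against rTreg in young and old mice, and 2 for aTreg against rTreg in old mice. With only the groups compared in the model the count was 0 for old against young aTreg, 1 for kTreg against aTreg in old mice and 0 for age by aTreg against rTreg. For kTreg against aTreg in old mice it was also 1 with the filter at 50, with the replicate block, with DESeq2 and at an unadjusted p with the fold threshold, which gave 1 for age by kTreg against aTreg and 2 for age by aTreg against rTreg. Without both mice numbered 2, chosen after seeing the data, the counts were 0 for old against young aTreg, 1 for kTreg against rTreg in young mice (Psmb10, at -0.60) and 0 for age by aTreg against rTreg. Leaving out 1 library or mouse gave 0 to 3 for old against young aTreg, 0 to 1 for kTreg against aTreg in old mice, 0 to 2 for kTreg against rTreg in young mice and 0 to 1 for age by aTreg against rTreg, and the other counts stayed. The cause of these changes was not tested.

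Beyond the values given with the results, the replicate block changed no call of a member. Leaving out 1 mouse moved 4 ratio differences across 0. Psmb8 to Psmb5 ranged from -0.034 to 0.037 for kTreg against aTreg and from -0.022 to 0.24 for old against young rTreg, and Psmb10 to Psmb7 from -0.030 to 0.091 for kTreg against rTreg and from -0.15 to 0.025 for old against young rTreg. Nlrc5 had the largest standard error of the members in a comparison of 4 with 4 libraries (0.20), followed by B2m (0.17). Every member was detected in every library, and the lowest value of any member was 2252 units, of Nlrc5.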
